A study of Mus musculus with 2 samples.

Results

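The miR-15 and miR-16 family was followed here through 6 of the 1973 miRNA genes counted in small RNA libraries of the mouse embryonic face. The members are Mir15a, Mir16-1, Mir15b, Mir16-2, Mir195a and Mir497b, taken by symbol as the hairpins of the family that lie outside the Mir322 cluster. Mir497, the partner of Mir195a, has no row of its own in the tables, and its level was read from the reads counted on the strand opposite to Mir497b, which overlaps it. The tissue was embryonic facial prominence of B6NCrl embryos, male and female pooled, at embryonic day 10.5. Replicate 1 was a pool from 69 embryos and replicate 2 a pool from 51, and both carry no treatment or mutation in their labels. The series has this 1 group only, so the comparisons are between hairpins and between the 2 pools. Levels are in CPM, the reads on the strand of a gene as a rate over all such reads of the library, which came to 2853511 in replicate 1 and 3517226 in replicate 2.

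MicroRNAs of this family repress messenger RNAs through pairing of bases 2 to 8, the seed, with sites in their targets. They are known as brakes on the cell cycle, acting on D-type and E-type cyclins and on cyclin-dependent kinases, and the Mir15a and Mir16-1 locus is known as a region lost in chronic lymphocytic leukaemia. Each locus makes a pair of hairpins from a shared primary transcript, with 1 hairpin of the miR-15 kind and 1 of the miR-16 kind.

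The mature sequences of the leading arm are shown because the split into these kinds runs through the results. The seed is in capitals. They were taken from RefSeq on GRCm38.p6 and are written 5′ to 3′.
Mir15a: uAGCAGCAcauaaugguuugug
Mir15b: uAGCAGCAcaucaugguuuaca
Mir497: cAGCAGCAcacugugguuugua
Mir16-1 and Mir16-2: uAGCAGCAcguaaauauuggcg
Mir195a: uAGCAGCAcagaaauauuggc
Mir497b: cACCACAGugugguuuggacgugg
Mir322: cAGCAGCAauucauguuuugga
The seed AGCAGCA was the same in Mir15a, Mir15b, Mir497, Mir16-1, Mir16-2, Mir195a and Mir322. Mir497b, although named with the family, is transcribed from the other strand and its listed mature sequence has the seed ACCACAG. After the seed the family fell into the 2 kinds. Mir15a, Mir15b and Mir497 shared the run UGGUUU, and Mir16-1, Mir16-2 and Mir195a shared the longer run AAAUAUUGGC. Counting positions from 1 at the 5′ end, Mir15a differed from Mir15b at 4 of 22 positions (A12C, G20A, U21C and G22A). Mir16-1 differed from Mir195a at 2 of the 21 positions they can be compared over (G10A and U11G), and Mir15a and its own partner Mir16-1 differed at 6 of 22. Mir497 stood farther from its kind, with 5 positions different from Mir15a and 6 from Mir15b, so the count of differences alone does not separate the kinds. Of 1738 mature miRNAs in the RefSeq table, 11 have the seed AGCAGCA. The others outside the Mir322 cluster were Mir195b, Mir6342, Mir6353 and Mir6419, each with a count of 0 in both libraries. The limit of 3 counts that a count of 0 allows corresponds to 1.05 CPM (replicate 1) and 0.853 CPM (replicate 2), and the upper bounds of the two-sided 95% Clopper-Pearson interval were 1.29 and 1.05 CPM.

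The hairpins lie at 3 places in the genome (mm10). Mir15a (ENSMUSG00000093007.1, chromosome 14, 61632027 to 61632110) lies in an intron of the long non-coding gene Dleu2. Mir16-1 (ENSMUSG00000092995.1, chromosome 14, 61631880 to 61631972) is 54 bases from it and overlaps an annotated exon of Dleu2, on the same minus strand. Mir15b (ENSMUSG00000065580.1, chromosome 3, 69009772 to 69009835) and Mir16-2 (ENSMUSG00000065606.1, chromosome 3, 69009902 to 69009996) are 66 bases apart on the plus strand, in an intron of Smc4, which encodes a condensin subunit. Mir497 (chromosome 11, 70234717 to 70234800) and Mir195a (ENSMUSG00000065411.2, chromosome 11, 70235042 to 70235135) are 241 bases apart on the plus strand. No host gene is annotated for them in the release used. Mir497b (ENSMUSG00000070109.2, chromosome 11, 70234692 to 70234816) spans Mir497 on the minus strand.

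How reads were assigned sets what can be said of Mir16-1 and Mir16-2. Their mature sequence is identical, and their hairpins share a run of 23 bases, which begins at the first mature base and ends 1 base past the last. The run is shown in lower case with the first 3 bases on each side in capitals. On each side the hairpins differ at the capital next to the run.
Mir16-1: CCUuagcagcacguaaauauuggcguUAA
Mir16-2: CUCuagcagcacguaaauauuggcguAGU
A read equal to the 22-base mature miR-16 lies in both hairpins. The tables list reads that map to several places apart from the genes, 27.6% of all reads in replicate 1 and 25.9% in replicate 2. These are reads of any origin, and how many are of miR-16 or of other miRNAs is not given. The counts given to Mir16-1 and Mir16-2 are therefore those of reads that could be placed, such as the opposite arm or ends past the shared run, and they are uncertain as levels of miR-16. The mature arms of Mir15a and Mir15b shared at most 11 bases with another miRNA gene in the RefSeq table, those of Mir497 at most 11, apart from Mir497b, and the Mir195a leading arm shared 16 with Mir195b.

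Mir15a was the highest member. It had 3789 CPM in replicate 1 and 4088 in replicate 2, a mean of 3938 ± 212 CPM (SD, n = 2), or 0.394% of all gene reads, and ranked 55 of 1973 genes by mean level. Mir16-1 had 2394 and 2102 CPM in the same order (mean 2248 ± 207, rank 71). Mir15b had 1733 and 1939 CPM (mean 1836 ± 145, rank 81). These 3 hairpins held 41.6%, 23.8% and 19.4% of the placed reads of the family. The remaining hairpins were below them in both libraries. Mir497 had 552 and 583 CPM (mean 567 ± 22.1), Mir16-2 had 573 and 425 CPM (mean 499 ± 105) and Mir195a had 388 and 350 CPM (mean 369 ± 26.9). For comparison, the 376 genes with at least 10 counts in each library had a median of 164 CPM, and each of these 6 hairpins was above it in both libraries.

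Neighbours in this order did not overlap between the libraries, except Mir497 and Mir16-2, whose ranges of 552 to 583 CPM and 425 to 573 CPM crossed. A miRNA read covers a whole mature molecule, so CPM is used for the order, but per 100 bases of annotated hairpin the places of Mir16-1 and Mir15b change. Mir15b then had 2708 and 3030 CPM per 100 bases and Mir16-1 had 2574 and 2260, since the Mir15b hairpin is annotated with 64 bases and that of Mir16-1 with 93. Mir15a stayed first with 4510 and 4867 CPM per 100 bases. With 2 libraries, no exact test between hairpins over samples can reach 0.05, and since ligation and amplification are known to prefer some small RNAs, the order is one of reads.

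**Figure D1:**
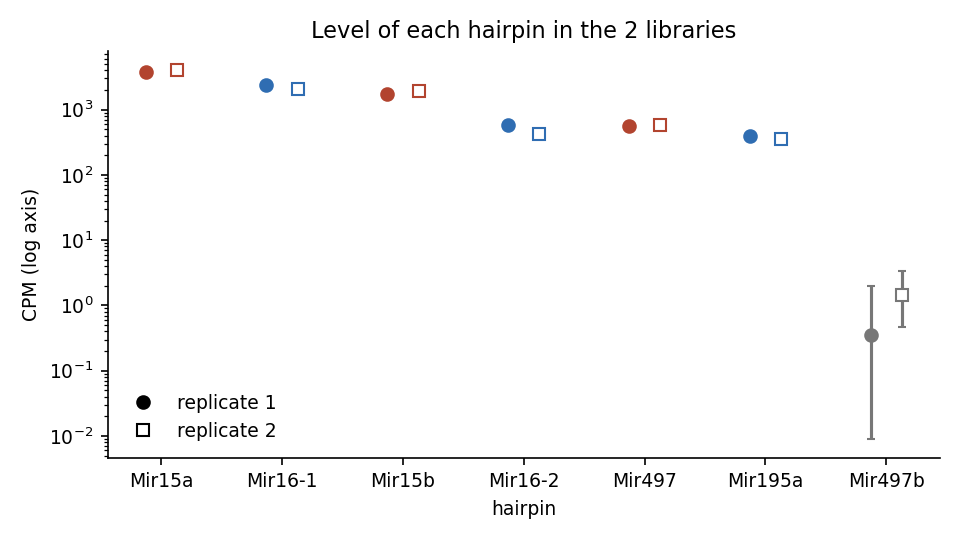
CPM on a log axis for each hairpin, with a filled circle for replicate 1 and an open square for replicate 2. Bars are exact Clopper-Pearson 95% intervals for counting error only and are hidden by the markers except at Mir497b. Red marks the miR-15 kind, blue the miR-16 kind and grey Mir497b. Mir15a is highest at 3789 and 4088 CPM, and Mir497b lies at 0.35 and 1.42 CPM.

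Mir497b itself was barely counted. Its strand had 1 read in replicate 1 and 5 reads in replicate 2, that is 0.35 CPM (95% Clopper-Pearson interval 0.00887 to 1.95, counting error only) and 1.42 CPM (0.462 to 3.32). The opposite strand of the same interval, where Mir497 lies, had 1574 and 2050 reads. The share on the Mir497 strand was thus 99.9% (99.65% to 100%) and 99.8% (99.43% to 99.92%). These reads were 2.21% and 2.33% of all reads counted opposite to a miRNA gene, and Mir497b ranked 9 among all genes by such reads in both libraries. At the other members the opposite strand had no read, except 2 reads at Mir195a in replicate 1. A table read by gene strand alone would list the locus through Mir195a and give almost nothing for Mir497.

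The 3 loci had the same order in both libraries. The Dleu2 pair, Mir15a and Mir16-1, summed to 6183 and 6190 CPM in replicates 1 and 2 (65.4% of the family). The Smc4 pair, Mir15b and Mir16-2, summed to 2307 and 2364 CPM (24.7%). Mir497 and Mir195a summed to 940 and 933 CPM (9.9%). The Dleu2 pair was 2.68 times the Smc4 pair in replicate 1 (95% counting interval 2.61 to 2.76) and 2.62 times in replicate 2 (2.55 to 2.69). Reads of miR-16 that map to several places are outside both sums, so the shares and ratios of these loci hold for the placed reads. Mir15b over Mir15a, which share no long run with other genes, was 0.457 and 0.474 and did not pass a two-sided Fisher's exact test of the difference between the libraries (p = 0.11). All 7 hairpins together gave 9429 and 9488 CPM, which is 0.943% (0.9318% to 0.9542%) and 0.949% (0.9387% to 0.959%) of the total of gene reads. The Mir497 reads were set over this total but are not part of it. The family sum and each locus sum thus differed by at most 1.03-fold between the pools.

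Within each locus, the balance between the placed reads of the partners differed between the pools. For Mir16-1 and Mir16-2 these leave out the reads that map to several places. The test between pools was a two-sided exact binomial test on counts with Benjamini-Hochberg adjustment over 450 tested features (at least 10 counts in all), and it compares the 2 libraries beyond counting error, not conditions. Both hairpins of the miR-15 kind at the larger loci were higher in replicate 2. Mir15a had a log2 ratio of replicate 2 over replicate 1 of 0.11 (95% counting interval 0.07 to 0.15, adjusted p = 1.1e-08 by the exact binomial test) and Mir15b one of 0.16 (0.11 to 0.21, adjusted p = 8.7e-09). All 3 hairpins of the miR-16 kind were lower. Mir16-1 had a ratio of -0.19 (-0.24 to -0.14, adjusted p = 5.6e-14 by the exact binomial test). Mir16-2 had the widest gap of the tested members, -0.43 (-0.53 to -0.33, adjusted p = 4.8e-16), and was 1.35-fold higher in replicate 1. Mir195a had -0.15 (-0.27 to -0.03, adjusted p = 0.035), and its adjusted p was 0.076 when the libraries were scaled with TMM factors. Mir497, with 0.08 (-0.02 to 0.18), did not pass (adjusted p = 0.21).

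Of the 6 tested hairpins 5 passed, 2 higher and 3 lower in replicate 2. Over all 450 tested features 40.2% passed (20% higher and 20.2% lower). The tested hairpins include Mir497 but not Mir497b, which had too few counts. At these depths small ratios pass, so the sizes are set beside those of other features. Many of those have fewer counts and so a wider counting error. Over the 321 features with a mean of at least 10 CPM the log2 ratio had a median of 0.03, an SD of 0.39 and a median absolute value of 0.18. The share of these features with a smaller absolute ratio was 81% for Mir16-2, 51.4% for Mir16-1, 45.8% for Mir15b, 39.3% for Mir195a, 30.2% for Mir15a and 22.4% for Mir497. The median ratio of the tested hairpins was -0.03, beside 0.01 over all tested features.

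**Figure D2:**
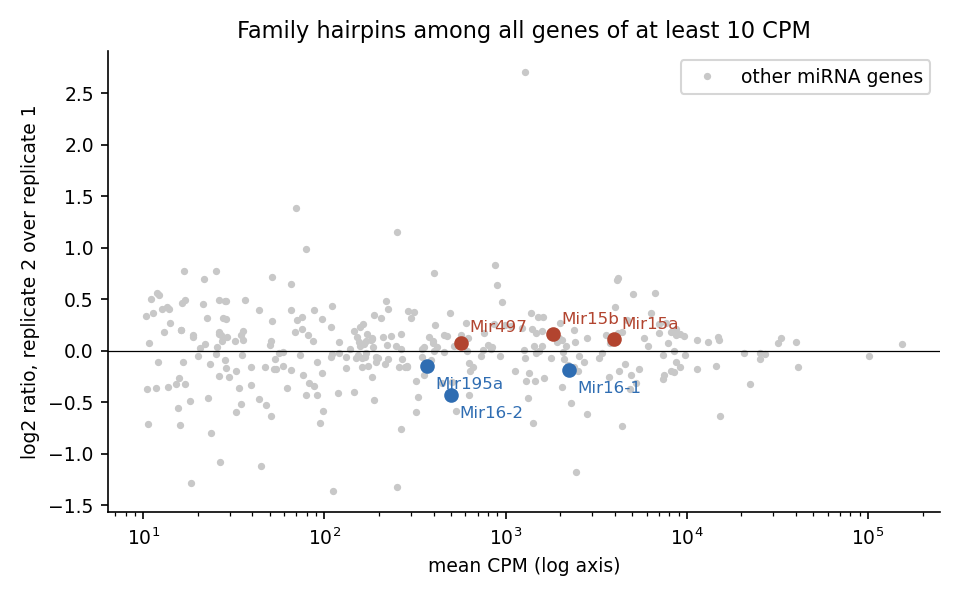
Log2 ratio of CPM, replicate 2 over replicate 1, against mean CPM on a log axis, for the 321 features with a mean of at least 10 CPM. Grey points are other miRNA genes, red the miR-15 kind and blue the miR-16 kind. The 3 red hairpins lie above 0, at 0.08 to 0.16, and the 3 blue ones below, at -0.15 to -0.43.

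The ratio of partners does not depend on how the libraries are scaled. At the Dleu2 and Smc4 loci its miR-16 side holds placed reads only. Mir15a over Mir16-1 was 1.58 in replicate 1 (95% counting interval 1.54 to 1.63) and 1.95 in replicate 2 (1.89 to 2). Mir15b over Mir16-2 was 3.02 (2.86 to 3.2) and 4.56 (4.31 to 4.82), the largest gap of the 3 loci. Mir497 over Mir195a was 1.42 (1.31 to 1.54) and 1.66 (1.55 to 1.79). In each locus the ratio was higher in replicate 2 and the counting intervals of the libraries did not overlap. Summed over loci, the miR-15 kind had 6074 and 6610 CPM and the miR-16 kind 3356 and 2877 CPM. Of the placed reads of the family, the miR-15 kind made up 64.4% in replicate 1 and 69.7% in replicate 2. Reads of mature miR-16 that map to several places are outside these values, so the shares do not give the balance of the mature kinds.

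**Figure D3:**
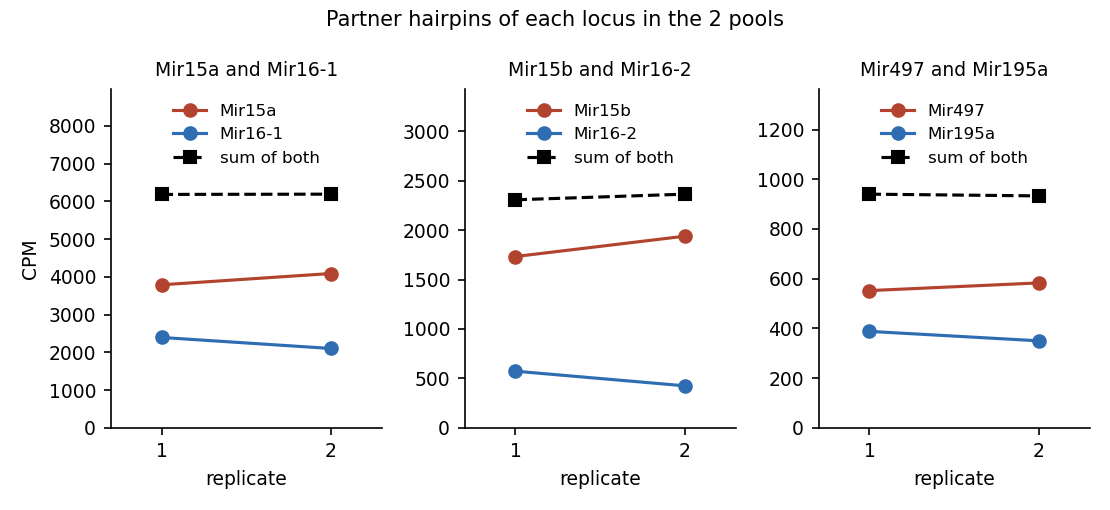
CPM of the partner hairpins of each locus in replicate 1 and replicate 2, with 1 panel per locus and axes that start at 0. Red is the miR-15 kind, blue the miR-16 kind, and black squares are the sum. The sums are level, at 6183 and 6190, 2307 and 2364, and 940 and 933 CPM, while the red and blue values part in replicate 2.

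Such gaps between neighbours were seen elsewhere too. Among 67 pairs of neighbouring hairpins on 1 strand, with at most 1000 bases between them and a mean of at least 10 CPM each, the absolute difference in log2 ratio had a median of 0.15 and quartiles of 0.06 and 0.30. In 24 pairs (35.8%) the signs were opposite, these 3 included. The difference was 0.59 for Mir15b and Mir16-2, larger than in 64 of the 67 pairs. It was 0.30 for Mir15a and Mir16-1 and 0.23 for Mir497 and Mir195a, larger than in 49 and 46 pairs. This set of pairs was chosen after the values of the family were seen, and the pattern across the kinds was itself noticed in these 2 libraries.

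Other values differed between the pools as well, some in the direction of the miR-16 kind and some not. The share of all reads that map to several places was also lower in replicate 2 (25.9% against 27.6%). Reads equal to mature miR-16 fall among these, but how many there are is not given. The share of unmapped reads was higher in replicate 2 (24.1% against 21.6%). Red blood cells are known to be rich in miR-16. Of 4 listed red cell markers 3 were matched, none was at 0, and their sum was 420 CPM in replicate 1 against 205 in replicate 2, and that difference came from Mir451a with 359 and 143 CPM. Mir144, at 41.4 and 37 CPM, and Mir486, at 20 and 25 CPM, did not pass the test. The epithelial markers (7 of 7 matched) summed to 28691 and 23965 CPM and the mesenchymal ones (6 of 6 matched) to 26190 and 23099 CPM, so markers of both layers of the labelled tissue were found. Leukocyte markers (5 of 6 matched) summed to 461 and 453 CPM. Mir142b was at 0 on its own strand, but 1998 and 2448 reads (700 and 696 CPM) lay on the opposite strand, where Mir142 is annotated, and are outside this sum. Nerve cell markers (5 of 6 matched) summed to 42.4 and 37.2 CPM. Their signs were mixed, with Mir9-3 lower in replicate 2 (41 and 28.4 CPM) and Mir124a-2 (1.05 and 4.55 CPM) and Mir124a-3 (0 and 3.41 CPM) higher. Striated muscle markers (5 of 6 matched, Mir133a-1 and Mir133a-2 at 0) summed to 26.6 and 11.4 CPM. Nearly all of that sum was Mir206, with 26.3 and 10.5 CPM, and Mir133b and Mir1a-1 had too few counts to be tested. Mir126a, the endothelial marker, was higher in replicate 2, with 31642 and 34369 CPM. The part of any of these in the family's differences was not tested, and in pooled tissue fewer cells of a type and less RNA per cell cannot be told apart.

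Mir322 carries the same seed from a cluster on chromosome X. It had 25602 and 25169 CPM in replicates 1 and 2 (mean 25386 ± 307, rank 8), far above any member. It was 6.76 and 6.16 times Mir15a, and 2.72 (95% counting interval 2.68 to 2.75) and 2.65 (2.62 to 2.69) times the whole family. Reads of miR-16 that map to several places are outside that sum, so these ratios to the family hold for the reads that were placed. Most placed reads counted at hairpins with this seed were at Mir322, but the counts do not separate the arms of a hairpin. After the seed, Mir322 shared at most 4 bases in a row with Mir15a or with miR-16, while Mir15a and Mir16-1 shared 3. By position, Mir322 was identical to Mir15b at 16 of 22 bases, to Mir15a at 15 and to miR-16 at 12. Mir15a and Mir16-1 were identical at 16 of 22, so these counts do not set Mir322 apart from the family.

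Mir503, next to Mir322, has the seed AGCAGCG, which departs from the family in its last base, and had 712 and 805 CPM. It was higher in replicate 2, with a log2 ratio of 0.18 (adjusted p = 0.0001 by the exact binomial test). Of the 7 listed genes of the Mir322 cluster 5 were matched. In replicate 2, Mir503 alone passed as higher, Mir322 (-0.02), Mir351 (-0.20) and Mir542 (-0.11) passed as lower, and Mir450b (-0.06) did not pass, beside 20% of all tested features called higher and 20.2% called lower. The median was -0.06, against 0.01 over all tested features. Mir351, at 2677 and 2338 CPM, had a level and a ratio near those of Mir16-1.

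**Figure D4:**
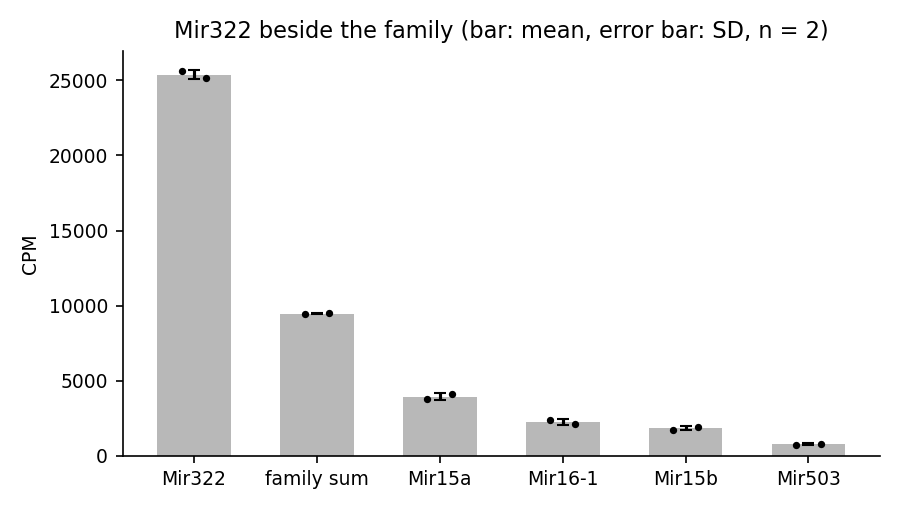
Mean CPM on a linear axis from 0, with SD bars and a dot for each library (n = 2), for Mir322, the sum over the family, its 3 highest members and Mir503. Mir322 stands at 25386 CPM and the family sum at 9459 CPM.

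The genes nearest to Mir15a in level over the 2 libraries, by Euclidean distance in log2 CPM, were Mir379 with 3684 and 3886 CPM (distance 0.08) and Mir872 with 3947 and 4436 CPM (distance 0.13). With 2 libraries this is closeness in level and says nothing further.

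Other miRNAs known to restrain the cell cycle, a list of 21 let-7, Mir26, Mir34 and Mir449 genes, give the setting. Of these 18 were matched, all 18 with at least 10 counts in all. In replicate 2, 2 passed as higher and 7 as lower, beside 40.2% of all tested features called, with a median log2 ratio of -0.18 against 0.01 over all tested features. Mir26b, which lies in an intron of Ctdsp1, was highest with 27327 and 26739 CPM. Mirlet7g had 5500 and 3321 CPM and Mirlet7i 3371 and 1493 CPM. The 2 that were higher, named after their values were seen, were Mir449a with 631 and 1122 CPM and Mir26a-1 with 5.61 and 11.7 CPM. The list summed to 39004 and 34713 CPM in replicates 1 and 2, a 1.12-fold difference, beside 1.01-fold for the 7 hairpins of the miR-15 and miR-16 family. Many let-7 and Mir26a copies share mature sequences, as the Mir16 hairpins do, so their placed counts are uncertain.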

How the data were processed

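Each library has a deposited table of unnormalised counts over miRNA genes, on mm10 with GENCODE annotation M4, per the file headers of the accompanying text. What aligner was used is not given in the sources used here, nor is the RNA extraction. Each of 1973 genes has a count over both strands, equal to its 2 stranded counts added. Sense counts were used here, and the 4 summary lines stayed out of the totals. Unmapped reads were 21.6% and 24.1% of 6828248 and 8643947 reads, and no read was listed as ambiguous.

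Symbols and positions came from GENCODE M21 (GRCm38), where 1894 identifiers matched, and sequences from RefSeq (GRCm38.p6). Mature sequences were found for all members, and the Mir15a hairpin is not used here. CPM, two-sided exact binomial tests (threshold 0.05, at least 10 counts in all, Mir497 added as a feature), Fisher's exact test and Clopper-Pearson intervals used scipy 1.17.1. Log2 ratios had a pseudocount of 0.5 CPM. TMM factors came from edgeR 4.0.16 and size factors from DESeq2 1.42.0, as alternatives only. With 1 group there is no contrast for a quasi-likelihood test. The procedures were tested on simulated data with counting error only. That is the model of the binomial test, so the simulation cannot show how the test behaves with further variation between pools. Intervals cover counting error only and treat each read as independent. PCR reads are not independent molecules, so the intervals can be too narrow and the p-values too small. The p-values measure only the difference between these 2 libraries, which the labels call biological replicates.

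The rule for naming genes took all members and Mir497, the Mir322 cluster, genes with the same seed, the 2 genes nearest to the highest member, and the 3 highest of a list of cell cycle miRNAs. Cell type markers were summed. Members, lists and alternatives were chosen with earlier results of these data known. The set of neighbouring pairs was chosen after the values were seen. The ratio of Mir322 to the family sum was planned with a test, which is not given because the sum is a score over chosen members.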

Additional observations from a re-analysis of the deposited data

How the results depend on the processing

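The family sum of 9459 CPM was 9229 CPM with counts on either strand, 3901 with all reads as the denominator and 8892 without the Mir497 reads, each a direct effect of the denominator or the reads summed, and 9429 to 9488 leaving out a replicate. The ratio of the Smc4 locus to the Dleu2 locus was 0.378, 0.466 with Mir15b over Mir15a alone, and 0.373 to 0.382 leaving out a replicate. Mir322 over the family was 2.68, and 2.65 to 2.72 leaving out a replicate. Of the 6 hairpins, 4 kept their place in the order per 100 bases of hairpin. Of 36 log2 ratios under 6 alternatives, 0 reversed and 35 kept their side of the threshold, the exception being Mir195a with TMM factors. The alternatives that change the pseudocount enter the ratio but not the test, so they could not change the side. The number of members called, 5, was 4 with TMM factors and with no minimum count, and 5 with DESeq2 size factors, at least 50 counts or counts on either strand. No paired analysis was possible because the series has 1 group. Depth limits Mir497b, at 1 and 5 reads, and read placement limits Mir16-1 and Mir16-2.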
